A study of Mus musculus with 36 samples.

Results

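The transcripts described here encode the proteins of the cytosolic ribosome. They were chosen by the gene name printed in the array files: names that begin with Rpl, Rps or Rplp followed by a number, without the Rps6k kinases and without pseudogene names that contain -ps. The name rule matched 184 probes of 86 genes. A probe was kept when 6 or more of the 36 arrays flagged its spot as well above background, and each gene was represented by its brightest probe. This left 178 probes of 83 genes, out of 22916 genes measured in all. The 3 genes that were not kept were Rpl3l and Rpl39l, well above background on 0 arrays each, and Rpl10l, well above background on 2 arrays. The member nearest to the limit from above was Rpl37, read by a dim probe that was well above background on 16 arrays. The other 82 members were well above background on all 36 arrays. The 83 members comprised all 43 proteins listed for the large (60S) subunit, all 30 listed for the small (40S) subunit, the 3 proteins of the stalk (Rplp0, Rplp1 and Rplp2), 5 paralogs of ribosomal proteins (Rps27l, Rpl7l1, Rpl22l1, Rpl36al and Rps4l) and 2 genes that only share the name (Rps19bp1, which encodes a protein that binds Rps19, and Rpl37rt, a retrotransposed copy of Rpl37).

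Most of these proteins occur as a single copy in each cytosolic ribosome, so cells make them in matched amounts and join them to ribosomal RNA in the nucleolus. Insulin acts through Akt and mTORC1 to promote their synthesis, largely at translation: their mRNAs begin with a C followed by a run of pyrimidines (the terminal oligopyrimidine, or TOP, motif), through which 4E-BP and Larp1 hold back translation when mTORC1 is inactive. Rps6 is itself the classical substrate of the S6 kinases downstream of mTORC1, and ribosome production is one of the largest biosynthetic costs of the liver cell.

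Total liver RNA came from male mice aged 11 weeks, fed chow ad libitum without treatment and killed at Zeitgeber time (ZT) 8, 12 or 16, in hours after lights-on, with lights off at ZT12. IRLKO mice lacked the insulin receptor in hepatocytes: a tamoxifen-inducible Cre recombinase driven by the transthyretin promoter (TTR-CreTam) acted on an insulin receptor gene in which an exon (the fourth) lies between LoxP sites, in C57BL/6J crosses. IRLWT mice were the controls with an intact receptor. The time of tamoxifen dosing and the Cre status of the controls are not given in the labels. With 2 genotypes and 3 times there were 6 groups, each of 6 liver RNA samples with 1 single-dye array apiece. The comparisons ask how the loss of the hepatocyte insulin receptor and the time of day relate to the liver transcriptome.

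Levels are given as log2 of the processed spot intensity minus the log2 75th percentile of that array, so 0 is that percentile, and levels of different probes were not set against each other. Ratios are differences of group means on this log2 scale from a limma fit with wash batch as a covariate, and "called" means a Benjamini-Hochberg adjusted p under 0.05 over all 22916 genes. Depth is not defined for arrays, whose number limits the precision: 53.7% to 63.1% of spots were well above background on each array and no spot was saturated. The receptor transcript Insr was lower on every IRLKO array than on any IRLWT array of the same time, with log2 ratios of -1.77, -1.88 and -1.65 at ZT8, ZT12 and ZT16; whether its probe lies in the deleted exon is not given here. RNA came from whole liver, so a change in the share of a cell type and a change of RNA per cell cannot be told apart. The labels number the 6 samples of a group as replicates and do not state that each came from a separate mouse, so the p-values measure the spread between these samples, which may be in part technical.

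A pair of arrays stood apart in these genes and in other measures. On IRLKO ZT8 replicate 3 the mean level of the 83 members was 6.28, whereas the other 5 arrays of its group lay between 6.76 and 6.95, and 79 of the 83 members were lower there than on every other array of the group. On IRLKO ZT12 replicate 6 the mean was 6.38, against 6.77 to 7.04 on the other arrays, and 82 of 83 members were lowest. Both arrays are kept in the values below, and counts without them are given beside the main ones. Both also had the lowest hepatocyte marker sum of their group (3889 and 4453 times the array's 75th percentile, against group medians of 5060 and 5488) the highest sum of the dividing-cell markers (21.0 and 13.9, against medians of 8.77 and 10.6) and the highest 75th percentile of intensity (495 and 525 units). On both, the stellate cell and fibroblast sum (115.3 and 85.85) was also the highest of the group and the lymphocyte sum (29.0 and 34.7) the lowest. On IRLKO ZT12 replicate 6 the endothelial sum (64.5) and the Kupffer cell sum (266.3) were the highest of its group as well. The part of these differences in the members' levels was not tested.

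**Figure D1:**
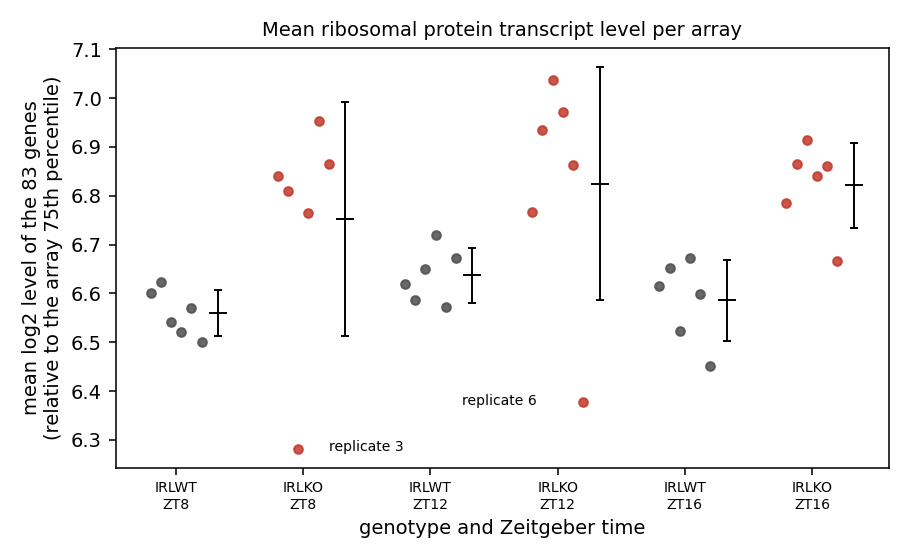
Mean log2 level of the 83 ribosomal protein transcripts on each of the 36 arrays (y axis, relative to the array's 75th percentile) by genotype and time (x axis). Points are arrays, grey for IRLWT and red for IRLKO, and the black mark and bar beside each group are its mean and SD (n = 6). The IRLKO arrays lie above the IRLWT arrays of the same time at ZT8 and ZT12 except for replicates 3 (6.28) and 6 (6.38), which lie below all of them, and IRLKO ZT16 replicate 6 (6.67) lies just below the highest IRLWT array of that time.

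Start-site regions are shown for the members with the strongest and best known behaviour. Recognisable elements occur in the promoters and first transcribed bases of some ribosomal protein genes, though not of all. RefSeq's table (build GRCm38.p6) held promoters of 62 of the 83 members. Each line gives the 70 bases before and the 30 bases from the annotated transcription start site, read along the gene's strand. Capitals mark 2 elements where they occur in these bases. CTTTC was searched on the sense strand from 15 bases before to 50 bases after the start, as a pyrimidine run of the TOP kind. CCGGAAG, an ETS-family (GABP) motif, was searched on both strands of the whole 300 bases. The first 7 genes are members named by rule, and Rpl11 was added after its values were seen, as a member with ratios near 0.
Rplp0, at chr5:115559397-115559496, + strand: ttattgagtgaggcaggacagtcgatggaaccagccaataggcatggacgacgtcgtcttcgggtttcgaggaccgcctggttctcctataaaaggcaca
Rpl12, at chr2:32961642-32961741, + strand: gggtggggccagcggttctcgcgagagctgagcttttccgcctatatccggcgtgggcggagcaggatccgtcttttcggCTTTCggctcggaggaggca
Rps12, at chr10:23787180-23787279, - strand: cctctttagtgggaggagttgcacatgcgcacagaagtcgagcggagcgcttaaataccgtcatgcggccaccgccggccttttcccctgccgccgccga
Rpl13a, at chr7:45128716-45128815, - strand: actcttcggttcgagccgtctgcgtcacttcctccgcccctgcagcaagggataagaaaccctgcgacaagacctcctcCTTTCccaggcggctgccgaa
Rps6, at chr4:86857338-86857437, - strand: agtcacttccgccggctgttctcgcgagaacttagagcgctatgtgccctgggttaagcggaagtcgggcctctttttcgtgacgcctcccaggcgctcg
Rplp2, at chr7:141447581-141447680, + strand: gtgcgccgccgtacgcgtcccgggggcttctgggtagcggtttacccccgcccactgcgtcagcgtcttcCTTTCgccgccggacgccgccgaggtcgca
Rps18, at chr17:33955636-33955735, - strand: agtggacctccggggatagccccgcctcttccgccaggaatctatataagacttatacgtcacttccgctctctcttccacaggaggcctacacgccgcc
Rpl11, at chr4:136053364-136053463, - strand: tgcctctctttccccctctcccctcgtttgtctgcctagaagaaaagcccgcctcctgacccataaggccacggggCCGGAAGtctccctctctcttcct

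Among the 76 proteins of the 60S and 40S subunits and the stalk, 56 had a promoter in the table, with 66 windows since some genes have several starts. CTTTC near the start was found in 43.9% of these windows, against 8.21% of the 32851 promoter windows of all genes. CCGGAAG was found in 36.4%, against 8.86%. AAGATGG, a YY1 motif searched on both strands, was found in 16.7%, against 6.34%. The end of CCGGAAG is the beginning of AAGATGG, and CTTTC can overlap the reverse complement of either, so 1 stretch can count for more than 1 motif. Rps6, Rplp2 and Rps18 hold CCGGAAG and Rpl13a holds AAGATGG elsewhere in their 300 bases. Rplp0 and Rps12 hold none of these motifs in the bases searched. A match is a description of letters, and a window without one shows only that these letters are not in it.

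In the IRLKO livers between 36.1% and 45.8% of the ribosomal protein transcripts were called higher at each time, by modest amounts, and at most 2 were lower. At ZT8, 33 of the 83 members were higher and 2 were lower, while 35.5% of all genes were called in either direction, 16.7% higher and 18.7% lower. At ZT12, 30 were higher and 1 was lower (of all genes 19.6% higher and 22.7% lower). At ZT16, 38 were higher and 2 were lower (of all genes 20% higher and 20.1% lower). As shares of the members, those called higher were 39.8%, 36.1% and 45.8%. The median log2 ratio of the members was 0.21, 0.18 and 0.24, beside 0.01, -0.02 and 0.00 over all genes. Ratios were above 0 for 74, 75 and 79 of the 83 members, and 73 were above 0 at all 3 times. The members called higher at all 3 times numbered 27, or 32.5%, against 8.91% of all genes. A further 5 were called higher at 2 times and 10 at 1 time, and 39 were never called. Of all 22916 genes, 1918 were called higher at 2 times and 2942 at 1 time, and 9067 were never called. Rps27l was called lower at all 3 times (10.6% of all genes were).

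Without the pair of arrays that stood apart, an alternative chosen after seeing the data, 65 members were higher and 2 lower at ZT8, 63 higher and 1 lower at ZT12, and 59 higher and 2 lower at ZT16, with medians of 0.30, 0.29 and 0.24. Leaving out IRLKO ZT8 replicate 3 alone gave 64 called members at ZT8, and leaving out IRLKO ZT12 replicate 6 alone gave 59 at ZT12. Within wash batches, the median at ZT8 was -0.05 in the batch that holds IRLKO replicate 3 and 0.38 and 0.35 in the others. At ZT12 it was -0.23 in the batch whose single IRLKO array is replicate 6, and 0.24 and 0.31 in the others. At ZT16 it was 0.31, 0.28 and 0.21. The number of calls also depended on the fit. With only the groups compared, 17 members were called at ZT8. Median centring gave 27, 26 and 28 at ZT8, ZT12 and ZT16, and no filter on dim probes gave 29, 28 and 36. Quantile normalization gave 54 at ZT12 and 71 at ZT16, and the authors' deposited table gave 53 and 68 there. Array weights gave 64 at ZT8 and 60 at ZT12. Shares of all genes called with arrays left out or under these fits are not given here. Whether the changes in count were particular to the members is therefore not shown.

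**Figure D2:**
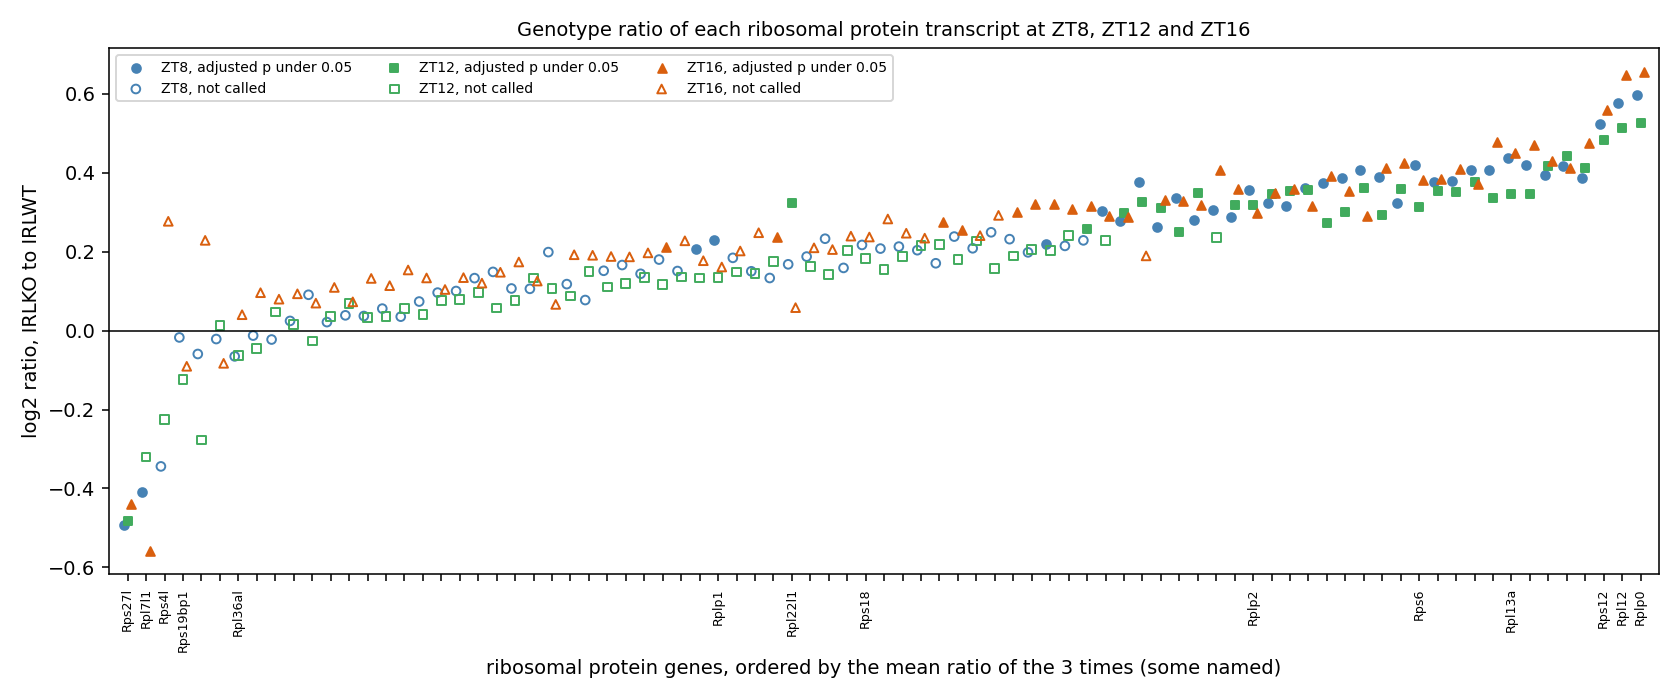
Log2 ratio of IRLKO to IRLWT (y axis) of each of the 83 members at ZT8 (circles), ZT12 (squares) and ZT16 (triangles), ordered along the x axis by the mean of the 3 ratios; filled symbols had a limma adjusted p under 0.05. Rplp0, Rpl12 and Rps12 end the row on the right with ratios of 0.48 to 0.66, and Rps27l begins it on the left with -0.49 to -0.44.

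The distribution of the members' ratios was shifted as a body. The lower and upper quartiles of the members lay at 0.11 and 0.33 at ZT8, at 0.08 and 0.32 at ZT12 and at 0.15 and 0.34 at ZT16. Members within 0.1 of 0 numbered 16, 18 and 10. The 77 mitochondrial ribosomal protein genes, which encode the separate ribosome that translates mitochondrial mRNAs, had medians of -0.20, -0.26 and -0.14. Of these 77, 42, 49 and 33 were called lower and 1, 5 and 7 higher at ZT8, ZT12 and ZT16. Of all genes, 18.7%, 22.7% and 20.1% were called lower and 16.7%, 19.6% and 20% higher. The difference between the members and the mitochondrial set was not itself tested.

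**Figure D3:**
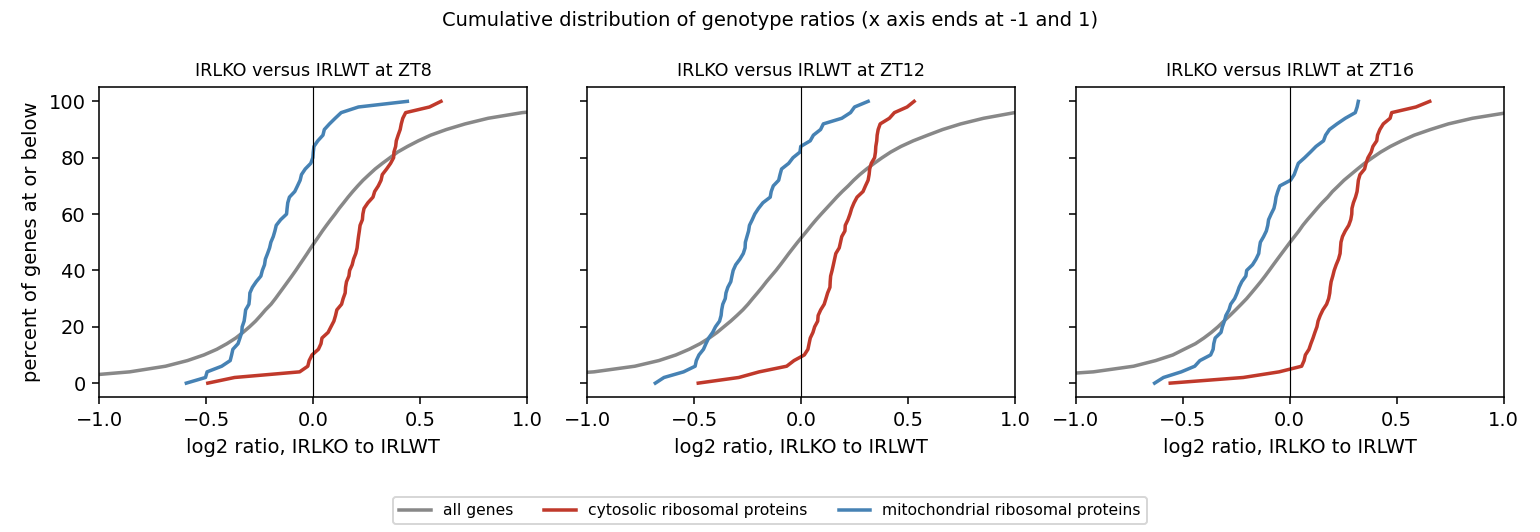
Cumulative distribution of the log2 ratio of IRLKO to IRLWT (x axis, ending at -1 and 1) at each time, as the percent of genes at or below each value (y axis), for all 22916 genes (grey), the 83 cytosolic ribosomal protein genes (red) and the 77 mitochondrial ribosomal protein genes (blue). The cytosolic set crosses the middle of the y axis at 0.21, 0.18 and 0.24 and the mitochondrial set at -0.20, -0.26 and -0.14.

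The stalk proteins recruit the elongation factors to the large subunit. Rplp0, which anchors the stalk and is often used as a reference gene in liver, had the largest rise of any member at each time. Its lowest, median and highest levels at ZT8 were 6.55, 6.73 and 6.91 in IRLWT and 6.81, 7.39 and 7.45 in IRLKO. At ZT12 they were 6.62, 6.83 and 7.03 in IRLWT and 6.94, 7.40 and 7.55 in IRLKO. At ZT16 they were 6.41, 6.74 and 6.91 in IRLWT and 7.28, 7.37 and 7.47 in IRLKO. The groups overlapped at ZT8 and ZT12 only through the low array of each IRLKO group, and did not overlap at ZT16. The log2 ratios were 0.60, 0.53 and 0.66 (SE 0.105 each; limma adjusted p 4.07e-05, 0.000154 and 9.12e-06), or 1.51-, 1.44- and 1.57-fold. The ratio was above 0 within every wash batch, from 0.22 to 1.01. The probe lies on chromosome 5 at 116013397-116013456 (mm9).

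Rplp2 and Rplp1, the acidic proteins that bind the elongation factors, had smaller ratios. Rplp2 had lowest, median and highest levels at ZT16 of 7.77, 7.84 and 7.94 in IRLWT and 8.05, 8.15 and 8.23 in IRLKO, without overlap. Its ratios were 0.36, 0.32 and 0.30, with limma adjusted p of 0.00284, 0.00606 and 0.0103. The Rplp2 probe also lists the pseudogene Rplp2-ps1 and Wdr89. Rplp1 rose by 0.23 at ZT8 (adjusted p 0.0216, limma), and its ratios at ZT12 and ZT16 were 0.14 and 0.16 (adjusted p 0.168 and 0.101). The times are not shown to differ, since the F test called no member, and further Rplp1 probes had ratios of 0.24 at ZT8, 0.23 at ZT12 and 0.23 and 0.24 at ZT16. The ZT8 call of Rplp1 was lost with median centring (adjusted p 0.0506), with only the groups compared in the fit (0.0931) and without any of 4 single arrays: IRLWT replicate 4 (0.0513) and IRLKO replicates 2 (0.0609), 5 (0.078) and 6 (0.061). Conversely, Rplp1 was called at both ZT12 and ZT16 with quantile normalization (limma adjusted p 0.0153 and 0.000416), in the authors' deposited table (0.045 and 0.00731), with the mean of all its probes (0.0299 and 0.0226) and without both low arrays (0.0114 and 0.0292). It was called at ZT12 also with array weights (0.0315) and without IRLKO ZT12 replicate 6 (0.029), and at ZT16 with normexp background correction (0.047).

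Of the 43 proteins of the large subunit, 15, 12 and 19 were called higher by limma at ZT8, ZT12 and ZT16 (16.7%, 19.6% and 20% of all genes). Of these 43, 0 were called lower (18.7%, 22.7% and 20.1% of all genes). At an unadjusted p under 0.05 as well, 0 were lower at each time. The share of all genes at that threshold is not given here. The medians were 0.19, 0.15 and 0.23. The 12 members called higher at all 3 times included Rpl3, Rpl5, Rpl12, Rpl13a, Rpl23a, Rpl36a and Rpl38. Their ratios ran from 0.28 (Rpl23a) to 0.58 (Rpl12) at ZT8, from 0.27 (Rpl38) to 0.51 (Rpl12) at ZT12 and from 0.29 (Rpl23a) to 0.65 (Rpl12) at ZT16. Rpl6 and Rpl39 were among those called at 2 times, and Rpl4, Rpl7 and Rpl26 among those called at 1. At the other end, 24 were never called (9067 of all 22916 genes were not).

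Rpl12, which sits at the base of the stalk, had the largest rise in this subunit. Its lowest, median and highest levels at ZT8 were 6.72, 6.81 and 6.96 in IRLWT and 7.00, 7.45 and 7.65 in IRLKO. At ZT12 they were 6.82, 6.97 and 7.03 in IRLWT and 6.94, 7.54 and 7.76 in IRLKO. At ZT16 they were 6.67, 6.82 and 7.00 in IRLWT and 7.30, 7.46 and 7.58 in IRLKO. The groups did not overlap at ZT8 and ZT16, and at ZT12 overlapped by the array of IRLKO replicate 6. Its ratios were 0.58, 0.51 and 0.65 (SE 0.103 each), with limma adjusted p of 5.13e-05, 0.000171 and 8.27e-06. Other Rpl12 probes gave 0.55, 0.50 and 0.57, and 0.83, 0.52 and 0.24.

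Rpl13a, known also as a regulator of inflammatory mRNAs outside the ribosome, rose at each time. At ZT16 its lowest, median and highest levels were 6.46, 6.61 and 6.72 in IRLWT and 6.88, 7.05 and 7.15 in IRLKO, without overlap. Its ratios were 0.44, 0.35 and 0.45 (SE 0.0857 at ZT8), with limma adjusted p of 0.000173, 0.00169 and 0.000103. Rpl13a and Rplp0, both common reference genes for RT-PCR, were not level between these genotypes on the arrays.

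Rpl5 and Rpl11 form a complex with the smallest ribosomal RNA and with it can bind the p53 regulator Mdm2, and they differed in their ratios. Both were singled out after their values were seen. Rpl5 at ZT8 ran from 5.33 to 5.43 in IRLWT (median 5.36) and from 5.04 to 6.06 in IRLKO (median 5.93), and was called higher at each time with ratios of 0.42, 0.44 and 0.41 (limma adjusted p 0.0125, 0.00676 and 0.0117). Rpl11 at ZT8 ran from 7.95 to 8.15 in IRLWT (median 8.09) and from 7.46 to 8.29 in IRLKO (median 8.16), so the groups overlapped widely. Its ratios were -0.01, -0.05 and 0.10, with 95% intervals of -0.23 to 0.21, -0.26 to 0.17 and -0.12 to 0.31, and none was called. The difference between Rpl5 and Rpl11 was not tested. Other large subunit members with ratios near 0 were Rpl29 (-0.02, 0.05 and 0.08), Rpl35a (0.02, 0.04 and 0.11) and Rpl41 (0.04, 0.07 and 0.07), also chosen after their values were seen.

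Of the 30 proteins of the small subunit, 15, 15 and 17 were called higher by limma (16.7%, 19.6% and 20% of all genes). Of these 30, 0 were called lower (18.7%, 22.7% and 20.1% of all genes), and the medians were 0.24, 0.24 and 0.30. At an unadjusted p under 0.05, 0 were lower too, and the share of all genes at that threshold is not given here. The 13 called higher at all 3 times included Rps3, Rps4x, Rps6, Rps10, Rps12, Rps14, Rps20 and Rps24. Their ratios ran from 0.26 (Rps14) to 0.52 (Rps12) at ZT8, from 0.25 (Rps10) to 0.48 (Rps12) at ZT12 and from 0.33 (Rps10) to 0.56 (Rps12) at ZT16. Rps23 and Rps28 were called at 2 times and Rps13, Rps15a, Rps19 and Rps29 at 1. The 11 never called (9067 of all 22916 genes) included Rps2, Rps18, Rps25 and Rps27. No test compared the small with the large subunit.

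Rps12, a protein of the beak of the small subunit, had the largest rise here. Its lowest, median and highest levels at ZT8 were 7.21, 7.32 and 7.48 in IRLWT and 7.36, 7.95 and 8.08 in IRLKO. At ZT12 they were 7.16, 7.35 and 7.48 in IRLWT and 7.30, 7.92 and 8.08 in IRLKO. At ZT16 they were 7.11, 7.25 and 7.38 in IRLWT and 7.69, 7.83 and 7.91 in IRLKO. The groups did not overlap at ZT16. Its ratios were 0.52, 0.48 and 0.56 (SE 0.107 each; limma adjusted p 0.000275, 0.000539 and 0.00011), or 1.44-, 1.40- and 1.47-fold. A second Rps12 probe, well above background on 35 arrays, gave 0.51, 0.40 and 0.20.

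Rps6, the S6 kinase substrate, was called higher at each time. At ZT8 its lowest, median and highest levels were 6.40, 6.49 and 6.53 in IRLWT and 6.27, 6.97 and 7.14 in IRLKO. At ZT16 they were 6.34, 6.62 and 6.68 in IRLWT and 6.66, 7.00 and 7.09 in IRLKO, and the groups overlapped only between the highest IRLWT and the lowest IRLKO array. The ratios were 0.42, 0.31 and 0.38 (SE 0.11 each), with limma adjusted p of 0.00349, 0.0223 and 0.00649. The ZT12 call was lost with median centring (adjusted p 0.0506), with only the groups compared in the fit (0.072), and without IRLWT replicate 5 (0.0631), IRLKO replicate 3 (0.0818) or IRLKO replicate 4 (0.0518). A second Rps6 probe gave 0.35, 0.31 and 0.37.

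Rps20, near the neck of the small subunit, was picked after its values were seen as a bright member. Its lowest, median and highest levels at ZT8 were 7.87, 7.90 and 8.03 in IRLWT and 7.85, 8.42 and 8.50 in IRLKO, overlapping only through the low array. At ZT16 they were 7.79, 7.94 and 8.04 in IRLWT and 8.19, 8.41 and 8.49 in IRLKO, without overlap. Its ratios were 0.42, 0.35 and 0.47 (limma adjusted p 0.0012, 0.00523 and 0.000303). Rps2, the small subunit protein at the mRNA entry side, had -0.02, 0.01 and -0.08, without a call. Rps25, known for its part in internal initiation, had 0.02, 0.02 and 0.09, also without a call. Both were picked after their values were seen.

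Rps18, another widely used reference transcript, was not called in the main fit. At ZT16 its lowest, median and highest levels were 8.46, 8.60 and 8.70 in IRLWT and 8.72, 8.84 and 8.96 in IRLKO, without overlap. Its ratios were 0.22, 0.18 and 0.24 (SE 0.102 each), with limma adjusted p of 0.0992, 0.154 and 0.065. The exact two-sided permutation test of 6 against 6 arrays gave p = 0.00216 at ZT16, the smallest it can give. Rps18 was called at all 3 times with quantile normalization (limma adjusted p 0.00924, 0.00191 and 0.000156) and in the authors' deposited table (0.0053, 0.00258 and 9.04e-05). The same held with array weights (0.00239, 0.00573 and 0.0137) and without both low arrays (0.000294, 0.000433 and 0.00203). At ZT16 alone it was also called with normexp background correction (0.0334), slide as a fixed block (0.025) and only the groups compared (0.0147). Further Rps18 probes gave 0.08, 0.14 and 0.17, and 0.24, 0.27 and 0.37.

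**Figure D4:**
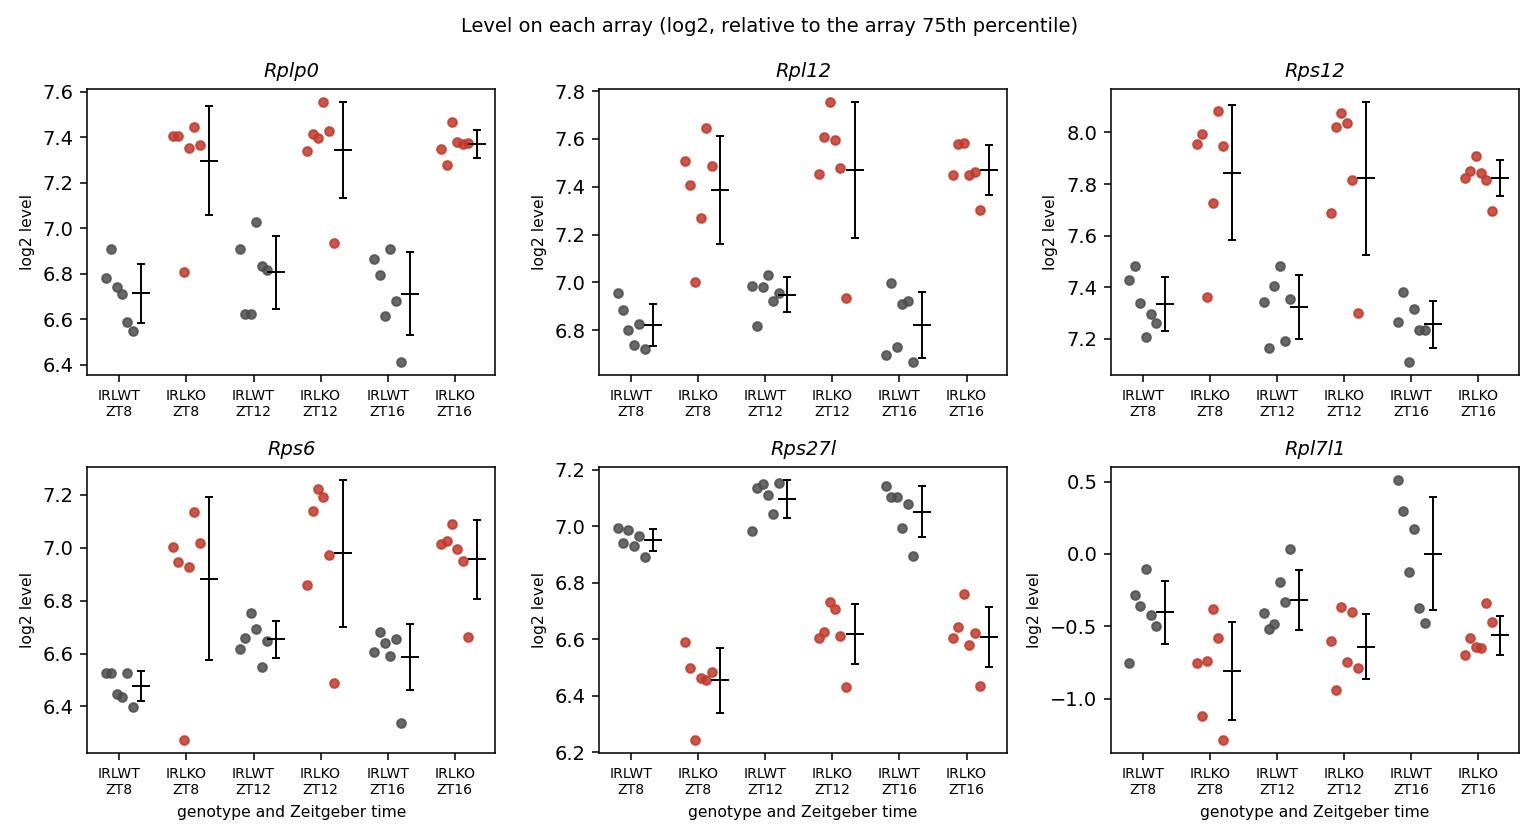
Log2 level of 6 members on each array (y axis, relative to the array's 75th percentile; each panel has its own range) by genotype and time (x axis), grey for IRLWT and red for IRLKO; the black mark and bar are the mean and SD of 6 arrays. Rplp0, Rpl12 and Rps12 do not overlap between genotypes at ZT16, and Rps27l lies lower on every IRLKO array at all 3 times.

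Of the 5 paralogs, Rps27l was called lower at each time, Rpl7l1 lower at 2 times and Rpl22l1 higher at 1, and Rpl36al and Rps4l were not called. Rps27l encodes a near copy of Rps27 and is known as a p53 target. Its lowest, median and highest levels at ZT8 were 6.89, 6.95 and 7.00 in IRLWT and 6.24, 6.47 and 6.59 in IRLKO. At ZT12 they were 6.98, 7.12 and 7.15 in IRLWT and 6.43, 6.62 and 6.73 in IRLKO. At ZT16 they were 6.90, 7.09 and 7.14 in IRLWT and 6.43, 6.61 and 6.76 in IRLKO. The groups did not overlap at any time, and it was the only member lower without overlap (of all genes, 9.41%, 13% and 10% were, at ZT8, ZT12 and ZT16). Its ratios were -0.49, -0.48 and -0.44 (SE 0.0601 each; limma adjusted p 1.44e-07, 1.5e-07 and 7.93e-07), or 0.711, 0.716 and 0.737 times the control level. It was below 0 within every wash batch, from -0.71 to -0.30, and a second probe gave -0.51, -0.47 and -0.47. Rps27 itself had ratios of 0.04, 0.06 and 0.15 (adjusted p 0.829, 0.702 and 0.257, limma), on a probe that also lists Rps27rt.

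Rpl7l1, a nucleolar relative of Rpl7, was lower at ZT8 and ZT16. At ZT16 its lowest, median and highest levels were -0.48, 0.02 and 0.51 in IRLWT and -0.70, -0.61 and -0.34 in IRLKO, with overlap. The ratios were -0.41, -0.32 and -0.56 (SE 0.157 each), with limma adjusted p of 0.0414, 0.101 and 0.00528. The ZT8 call was lost without any of 6 single arrays: IRLWT replicates 2, 3, 4 and 5 (adjusted p 0.0809, 0.0636, 0.113 and 0.0629) and IRLKO replicates 2 and 6 (0.105 and 0.125). It was also lost with normexp background correction (0.0566), with no filter on dim probes (0.0697) and with only the groups compared in the fit (0.0995). Rpl7 had ratios of 0.21, 0.24 and 0.31, the last of them called (adjusted p 0.0255, limma).

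Rpl22l1, a paralog of Rpl22 whose probe also lists Gm15421, was called higher at ZT12 alone, by 0.32 (SE 0.12; limma adjusted p 0.0307), and had ratios of 0.17 and 0.06 at ZT8 and ZT16. The ZT12 call was lost under 9 of the 26 alternatives, with adjusted p up to 0.114 without IRLKO replicate 3; the other single arrays without which it was lost were IRLWT replicates 1 (0.0569), 2 (0.0528), 3 (0.0616) and 5 (0.0612) and IRLKO replicate 4 (0.064). Rpl36al had ratios of -0.07, -0.06 and 0.04, against 0.39, 0.41 and 0.48 for its paralog Rpl36a, which was called at each time (limma adjusted p 0.00361, 0.00173 and 0.000426). Rps4l had ratios of -0.34, -0.23 and 0.28, with an SE of 0.245 and no call, while Rps4x was called at each time with 0.39, 0.42 and 0.43. The differences between paralogs were not tested. Of the genes that share only the name, Rps19bp1 had ratios of -0.02, -0.12 and -0.09 and Rpl37rt of 0.07, 0.04 and 0.13, without a call.

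Without overlap between genotypes, 2 members were higher at ZT8 (Rpl12 and Rpl38; 6.12% of all genes), 0 at ZT12 (8.39%) and 27 at ZT16 (9.22%). The low count at ZT12 is that of a group holding IRLKO replicate 6, on which 82 of 83 members had the lowest value of their group. Rpl38, a large subunit protein known for its part in the patterning of the vertebrate axis, was picked after its values were seen. At ZT8 it ran from 7.84 to 7.93 in IRLWT and from 7.98 to 8.43 in IRLKO.

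Across the light and dark phases the members changed little. From ZT8 to ZT12, 1 member was called in IRLWT (14.8% of all genes) and 1 in IRLKO (13.2%), Rps19bp1 in both. From ZT12 to ZT16, 0 members were called in IRLWT by limma (3.62% of all genes) and 1 was called in IRLKO (12.6%), Rpl22l1. In IRLWT, 0 members had an unadjusted p under 0.05 for this step. There 0 were also called under quantile normalization and in the authors' deposited table. The shares of all genes for these IRLWT counts are not given here. From ZT8 to ZT16, 2 members were called in IRLWT (26.6%) and 2 in IRLKO (28.9%), in both genotypes Rps19bp1 higher and Rpl22l1 lower. The medians over members were 0.09, -0.06 and 0.02 for these 3 comparisons in IRLWT and 0.07, 0.01 and 0.07 in IRLKO. From ZT8 to ZT12, 74 members in IRLWT and 68 in IRLKO had ratios above 0, and from ZT12 to ZT16, 78 members in IRLWT had ratios below 0, though their sizes did not pass the test. Counts between ZT8 and ZT16 depended on the scaling. Quantile normalization called 1 member higher and 7 lower in IRLWT and 13 higher and 1 lower in IRLKO. The authors' deposited table gave 6 calls in IRLWT and 15 in IRLKO. Shares of all genes called under these scalings are not given here. Whether the changes in count were particular to the members is therefore not shown.

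Rps19bp1, also described as a regulator of the deacetylase Sirt1, had lowest, median and highest levels of 2.19, 2.30 and 2.41 at ZT8, 2.52, 2.67 and 2.72 at ZT12 and 2.48, 2.67 and 2.86 at ZT16 in IRLWT. The ZT8 arrays lay below all arrays of both later times. It rose from ZT8 to ZT16 by 0.38 in IRLWT and by 0.31 in IRLKO (SE 0.0736 each; limma adjusted p 0.00019 and 0.00162). Rpl22l1 had lowest, median and highest levels of 5.27, 5.37 and 5.49 at ZT8 and 4.84, 5.10 and 5.17 at ZT16 in IRLWT, without overlap, and of 5.09, 5.58 and 5.74 at ZT8 and 4.72, 5.09 and 5.46 at ZT16 in IRLKO, with overlap. It fell by 0.34 in IRLWT and by 0.45 in IRLKO (adjusted p 0.0363 and 0.00474, limma).

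The genotype effect did not pass a test of change over the day for any member. The limma F test of the genotype effect across the 3 times called 0 members, while it called 8.46% of all genes. At an unadjusted p under 0.05 there were 0 members as well. The share of all genes at that threshold is not given here, and members that move together are not separate results. The smallest adjusted p among the members was 0.472, for Rps4l. The difference between the effects at ZT16 and ZT8 called 0 members (9.74% of all genes). There were 0 members under an unadjusted p of 0.05, and 1 was called in the authors' deposited table. Shares of all genes for these last counts are not given here. The median difference over members was 0.03, and 65 of the 83 differences lay within 0.1 of 0. Over the 83 members the Pearson correlation of the ratios was 0.95 between ZT8 and ZT12, 0.845 between ZT12 and ZT16 and 0.869 between ZT8 and ZT16, with Spearman's rho of 0.931, 0.864 and 0.875. These correlations run across genes, which were read on the same arrays within each comparison and are not independent replicates. They are given as a description of how the order of the members was kept. The arrays of the 3 comparisons were separate, while the probes were shared.

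Within groups the members moved up and down together from array to array. With each array's deviation from its group mean, the median correlation of a member with the mean of the other 82 members was 0.934 over the 36 arrays, and 73 of 83 members were above 0.8. These points share the scaling of each array and the pair of low arrays. The highest values were those of Rps19, Rpl6 and Rps20 (0.983, 0.981 and 0.978). The lowest were those of Rps19bp1 (0.0154), Rpl7l1 (0.11) and Rps4l (0.231), none of which encodes a standard subunit protein, followed by the dim Rpl37 probe (0.575) and Rpl36al (0.583). The median SD of the members about their group means was 0.172, against 0.238 over all genes.

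**Figure D5:**
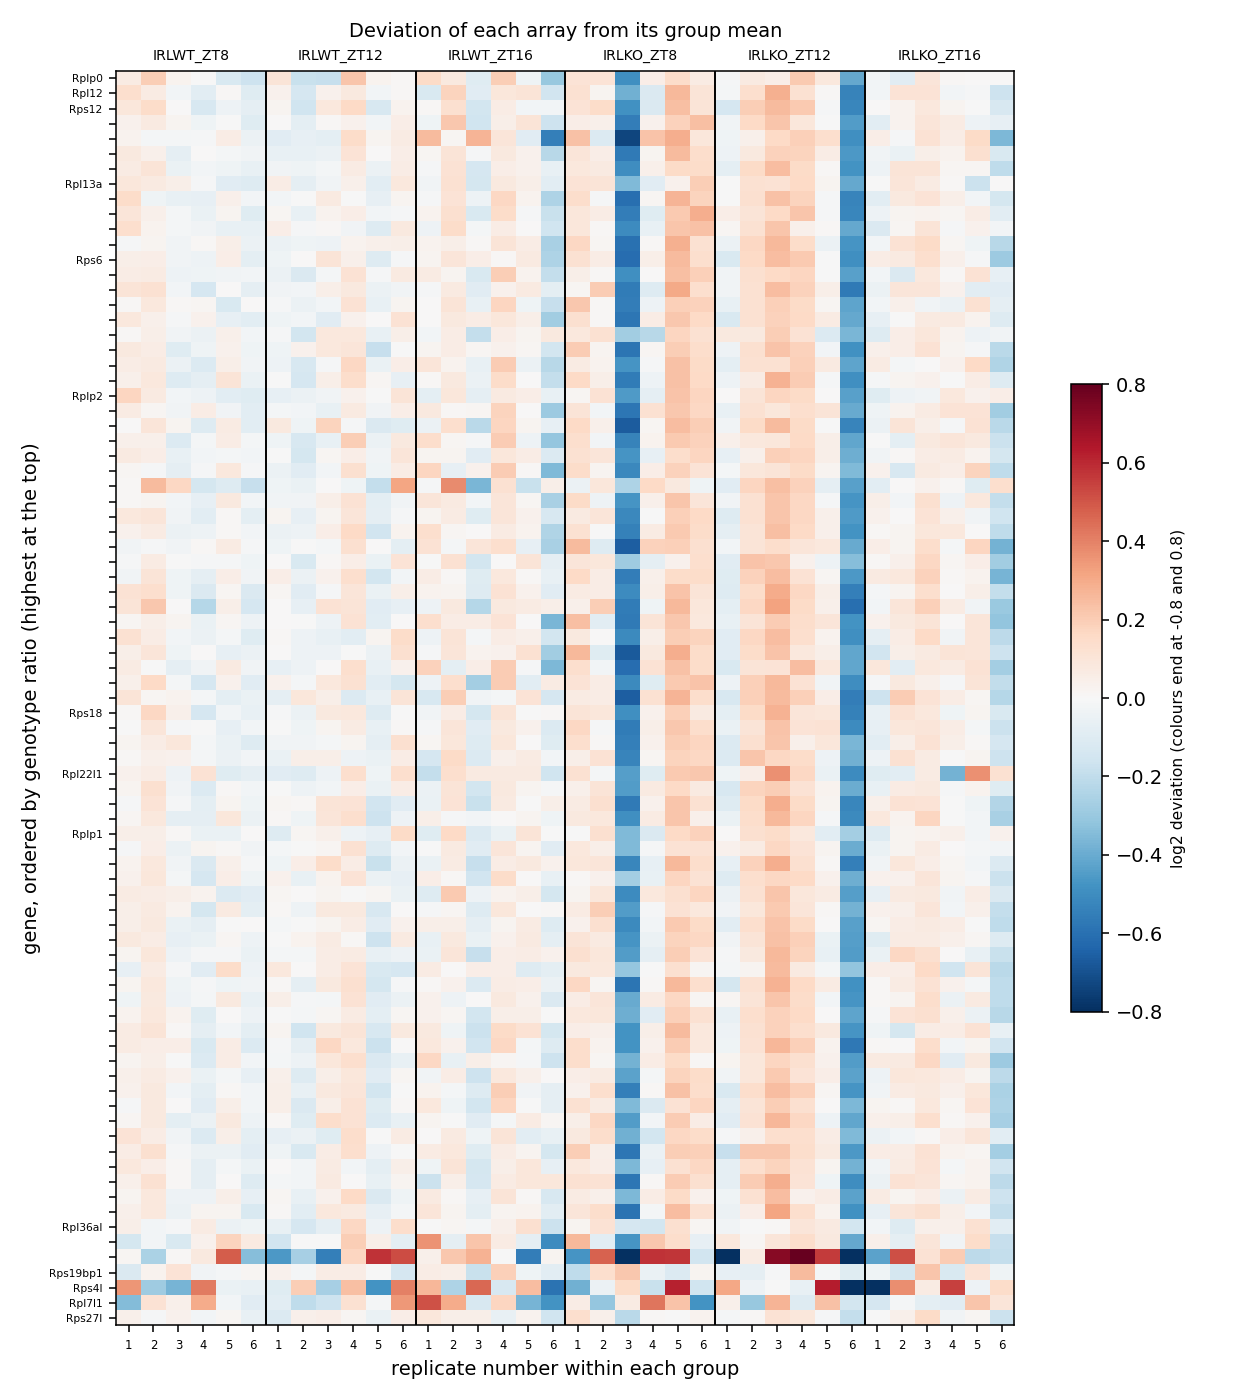
Deviation of each member (rows, ordered by genotype ratio with the highest at the top) on each array (columns, replicates 1 to 6 of each of the 6 groups) from the mean of its group, in log2 units, red for higher and blue for lower, with colours ending at -0.8 and 0.8. IRLKO ZT8 replicate 3 and IRLKO ZT12 replicate 6 form blue columns through nearly all rows, with median deviations of -0.50 and -0.44, and IRLKO ZT16 replicate 6 a fainter one, with -0.17.

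Other probes of the same genes had similar medians, while single probes of a gene could differ widely. In all, 58 members had further probes, 95 of them, with medians of 0.26, 0.23 and 0.28 at ZT8, ZT12 and ZT16. The brightest probes of those genes, each counted once per further probe, had medians of 0.24, 0.21 and 0.30. The sign was that of the brightest probe for 87, 88 and 84 of the 95. Across the 95 probes, which are not independent replicates and share arrays with the brightest ones, Pearson's r with the brightest probe's ratio was 0.62, 0.62 and 0.54. Chosen after their values were seen, a further probe of Rps9 had 0.76, 1.00 and 0.88 where the brightest had 0.32, 0.35 and 0.36, and one of Rps20 had -0.00, -0.07 and 0.33 where the brightest had 0.42, 0.35 and 0.47. The probes of 11 members list a second gene in the files, mostly a pseudogene or retrogene copy, and transcripts of such copies cannot be told apart by these probes.

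Subunit proteins and partners whose names fall outside the rule behaved in both ways. Rpsa, a small subunit protein also known as the laminin receptor, rose by 0.49, 0.35 and 0.48 (limma adjusted p 0.000665, 0.0103 and 0.000833). Gnb2l1, which encodes the scaffold Rack1 on the small subunit, rose by 0.32, 0.25 and 0.34 (adjusted p 0.00561, 0.0256 and 0.00293, limma). Fau, which encodes a ribosomal protein fused to a ubiquitin-like domain, had ratios of 0.15, 0.08 and 0.05 and was not called.

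Of 23 listed translation factors and related genes that carry the same 5′ motif, 11, 8 and 12 were called higher (47.8%, 34.8% and 52.2%, against 16.7%, 19.6% and 20% of all genes) and 1 lower at each time, with medians of 0.24, 0.17 and 0.26. Eef1b2, a subunit of the exchange factor of elongation factor 1, rose by 0.60, 0.53 and 0.59 (limma adjusted p 7.84e-05, 0.000299 and 7.32e-05). Npm1, a nucleolar chaperone, rose by 0.52, 0.63 and 0.57, and Pabpc1, the poly(A) binding protein, by 0.34, 0.34 and 0.26. Eif4b, an S6 kinase substrate that aids the initiation helicase, rose by 0.58 at ZT12 and 0.77 at ZT16 and had 0.16 at ZT8 (adjusted p 0.323, limma).

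Of 41 tested genes that build the ribosome, 10 were higher and 0 lower at ZT8, 9 higher and 3 lower at ZT12, and 2 higher and 1 lower at ZT16, with medians of 0.18, 0.14 and 0.00. The shares called higher were 24.4%, 22% and 4.88%, against 16.7%, 19.6% and 20% of all genes. The difference between the effects at ZT16 and ZT8 itself was called for 2 of the 41 (4.88%, against 9.74% of all genes), both lower at ZT16. Ubtf, the RNA polymerase I transcription factor, rose by 0.83 and 0.63 at ZT8 and ZT12 and had 0.21 at ZT16 (limma adjusted p 4.08e-08, 2.63e-06 and 0.0692). Nob1, which makes the last cut of the small subunit RNA, rose by 0.64 and 0.61 and had 0.26 at ZT16 (adjusted p 0.000264, 0.000337 and 0.114, limma). Nop16, a nucleolar protein of large subunit assembly, fell by 0.27 at ZT12 and by 0.64 at ZT16. Polr1c, shared by RNA polymerases I and III, rose by 0.64 and 0.45 at those times.

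Genes of the mTORC1 and translational control list went both ways: of 32 tested, 9 rose and 7 fell at ZT8, 12 rose and 8 fell at ZT12, and 11 rose and 10 fell at ZT16. The shares that rose were 28.1%, 37.5% and 34.4% (16.7%, 19.6% and 20% of all genes), and those that fell were 21.9%, 25% and 31.2% (18.7%, 22.7% and 20.1% of all genes). Eif4ebp3, a 4E-BP that restrains cap-dependent initiation, rose by 1.53, 2.41 and 1.15 (limma adjusted p 5.23e-06, 1.46e-09 and 0.000198). Eef2k, the kinase that inhibits elongation factor 2, fell by 0.64, 0.89 and 0.40. Rictor, the defining subunit of mTORC2, rose by 0.71, 0.88 and 0.55, and Sesn3, a FoxO-induced inhibitor of mTORC1, rose by 0.52 and 0.81 at ZT12 and ZT16 and had 0.08 at ZT8.

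Markers of hepatocytes and of other liver cells were measured beside the members; of all genes, 16.7%, 19.6% and 20% were called higher and 18.7%, 22.7% and 20.1% lower. All 10 hepatocyte markers were well above background on all arrays, and 0, 2 and 1 of them were called higher and 2, 4 and 3 lower at ZT8, ZT12 and ZT16. Their summed level was lower in IRLKO without overlap at ZT12 (5862 to 6267 in IRLWT, 4453 to 5521 in IRLKO) and ZT16 (5675 to 6646 and 5121 to 5596), and overlapped at ZT8 (5369 to 6524 and 3889 to 6082). Of 10 Kupffer cell markers, 3, 6 and 4 were called higher and 0 lower, and their summed level, as a multiple of the array's 75th percentile, ran from 50.8 to 120.2, 42.0 to 130 and 50.04 to 171.6 in IRLWT and from 72.4 to 297.1, 93.8 to 266.3 and 104.9 to 341.3 in IRLKO. Of 9 endothelial markers, 0, 8 and 7 were higher and 0 lower, and of 9 stellate cell and fibroblast markers, 0, 3 and 3 were higher and 0, 1 and 1 lower. At ZT12 the endothelial sum ran from 33.92 to 42.88 in IRLWT and from 45.48 to 64.47 in IRLKO. The stellate cell and fibroblast sum ran from 41.71 to 72.33 and from 73.77 to 85.85 there. Neither sum overlapped between genotypes at ZT12, and both overlapped at ZT8 and ZT16. Of 8 lymphocyte markers tested, 4, 5 and 6 were higher and 1, 2 and 1 lower. Of 9 dividing-cell markers, 3, 3 and 6 were higher and 0 lower, with sums from 7.55 to 8.80, 7.64 to 9.56 and 6.503 to 9.41 in IRLWT and from 7.58 to 21.0, 8.68 to 13.9 and 7.96 to 13.1 in IRLKO. Of 4 red cell markers tested, 0, 2 and 2 were higher and 1 lower at each time. Their sums ran from 215.1 to 591.5, 155.5 to 328 and 209.8 to 337.6 in IRLWT and from 180.3 to 369, 285.4 to 659.6 and 361.1 to 617.1 in IRLKO, without overlap at ZT16. Of 6 bile duct markers, 0, 0 and 1 were higher and 0, 1 and 0 lower. Some of these markers were dim: 5 of 10 dividing-cell, 7 of 10 lymphocyte and 2 of 6 bile duct markers on the array were well above background on all arrays. The part of these cells in the members' ratios was not tested. The arrays of IRLKO ZT8 replicate 3 and IRLKO ZT12 replicate 6, where the members were lowest, had Kupffer sums of 209.6 and 266.3, above the medians of 138.7 and 161 of their groups.

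Core members, those of the subunits and the stalk, had ratios above 0 on both sides of each motif. The 27 core members with CTTTC near a start had median ratios of 0.23, 0.19 and 0.29, and the 29 without it had 0.21, 0.19 and 0.24. The 23 with CCGGAAG had medians of 0.20, 0.13 and 0.23, and the 33 without it 0.23, 0.22 and 0.28. The 9 with AAGATGG had 0.15, 0.11 and 0.19, and the 47 without it 0.22, 0.21 and 0.29. No test was made of these differences.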

How the data were processed

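The 36 liver RNA samples were measured on 1-colour Agilent arrays, from 200 ng of total RNA per the labels. Per the file headers, the deposited spot values are fluorescence intensity from Feature Extraction 10.10.1.1, corrected for background and spatial trend, with no normalization across arrays. Other deposited values, 0 or 1, flag spots as saturated, as outliers or as well above background. The authors' deposited table holds log2 values, quantile normalized as their identical sorted columns show; how it was made is otherwise not given in the sources used here, and limma is named in the submitters' processing notes. It was used as an alternative.

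From log2 processed intensity, the 75th percentile of the array's non-control spots (311 to 525 intensity units) was subtracted. Outlier spots were left out and spots of a probe averaged. Probes well above background on at least 6 arrays were kept (34771, of which 93 without a value on some array were dropped), and the brightest probe of each file gene name was used, giving 22916 genes. Probe positions are those of the files (mm9); the RefSeq tables, on GRCm38.p6, gave names and start-site sequences only, so the exon a probe reads is not given.

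limma 3.58.1 (lmFit, eBayes) in R 4.3.3 fitted 6 group means with the 3 wash batches as a fixed effect over all genes (28 residual degrees of freedom), with Benjamini-Hochberg adjustment and a threshold of 0.05. The scripts were tested on simulated data. Permutation tests were exact and two-sided over 6 against 6 arrays, with 0.00216 the smallest possible p. Named with values are, for each genotype comparison, the called members with the 3 largest rises and the 3 largest falls. Also named are the members called between ZT8 and ZT16 with the 2 largest rises and falls, and all paralogs. Rps6, Rplp0, Rplp1, Rplp2, Rpl13a and Rps18 were always named, with a few genes of each related list. Other members with values were chosen after these were seen, or are ends of a range, core partners of paralogs or genes that share only the name. Some genes are counted among the members but not reported here by name. The members, the lists and the tests were chosen with earlier results of these data known. Alternatives were other normalizations and background correction, filters, probe rules, blocks, array weights and leaving out arrays.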

Additional observations from a re-analysis of the deposited data

Results flagged for a closer look

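Among the mean member level and 14 named members, 90 groups of 6 arrays were searched for an array far from the other 5 by Dixon's test at the 95% level, and 13 were found where chance gives about 4.5, or 1 in 20. IRLKO ZT8 replicate 3 accounted for 4 and IRLKO ZT12 replicate 6 for 4, so these are not independent. On IRLKO ZT8 replicate 3 the mean member level was 6.28 (others 6.76 to 6.95), Rplp0 was 6.81 (7.35 to 7.45), Rps6 was 6.27 (6.93 to 7.14) and Rps18 was 8.22 (8.74 to 8.90). On IRLKO ZT12 replicate 6, Rplp0 was 6.94 (7.34 to 7.55), Rpl12 was 6.94 (7.45 to 7.76), Rplp2 was 7.79 (8.22 to 8.39) and Rpl13a was 6.60 (7.00 to 7.16). Rps6 was also far below the others on IRLWT ZT16 replicate 6 (6.34, against 6.59 to 6.68) and on IRLKO ZT16 replicate 6 (6.66, against 6.95 to 7.09). Rps19bp1 was low on IRLWT ZT12 replicate 6 (2.52, against 2.65 to 2.72) and high on IRLKO ZT12 replicate 4 (2.80, against 2.44 to 2.53). Rps4l was low on IRLKO ZT16 replicate 1 (2.21, against 3.26 to 3.84).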

How the results depend on the processing

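The median ratio of the members stayed above 0 in each genotype comparison under all 14 alternatives to the whole fit and moved by less than 0.149, the pooled SD of the mean level; none of the results changed sign while called. Counts of called members moved by over 1.5 times as follows, and the causes were not tested unless fewer arrays are named. Counts of all genes called under these alternatives are not given here. With quantile normalization 54 members were called for genotype at ZT12 (31 in the main fit) and 71 at ZT16 (40), and 2 and 8 for ZT12 and ZT16 against ZT8 in IRLWT and 14 for ZT16 against ZT8 in IRLKO. In the authors' deposited table the counts were 53 at ZT12 and 68 at ZT16, 6 for ZT16 against ZT8 in IRLWT, 3 and 15 for ZT16 against ZT12 and ZT8 in IRLKO, and 1 for the ZT16 minus ZT8 difference of the effects. Array weights gave 64 at ZT8, 60 at ZT12, 7 and 6 for ZT12 and ZT16 against ZT8 in IRLWT, and 2 and 5 for the same in IRLKO. With only the groups compared in the fit, 17 were called at ZT8 (35 in the main fit), 5 for ZT12 against ZT8 in IRLWT, and 0 for ZT12 against ZT8 and for ZT16 against ZT12 in IRLKO; the F test has no such fit. No filter on dim probes gave 1 for ZT16 against ZT8 in IRLWT and 0 for ZT12 against ZT8 in IRLKO, and slide as a fixed block 1 for ZT16 against ZT8 in IRLWT. Without both arrays that stood apart, counts were 67, 64 and 61 for genotype at ZT8, ZT12 and ZT16, 7 for ZT12 against ZT8 in IRLWT, and 2, 3 and 4 for ZT12 against ZT8, ZT16 against ZT12 and ZT16 against ZT8 in IRLKO. Leaving out 1 array of the groups compared at a time gave 26 to 64 at ZT8 (64 without IRLKO replicate 3), 22 to 59 at ZT12 (59 without IRLKO replicate 6) and 32 to 45 at ZT16 (53 and 57 without the low arrays of ZT8 and ZT12, which share the fit), 1 to 3 for ZT16 against ZT8 in IRLWT, 0 to 5 for ZT12 against ZT8, 1 to 2 for ZT16 against ZT12 and 2 to 4 for ZT16 against ZT8 in IRLKO. With the replicate block 1 member was called for ZT16 against ZT8 in IRLWT, and no other count moved by over 1.5 times; the numbers do not pair the samples, since 90 pairs of arrays with the same number had a mean correlation of -0.00556 and 450 others 0.00158, and 3 of 36 arrays correlated best with one of their own number. Of the named genes' results under all alternatives, 1746 stayed on the same side of the threshold, 54 moved past it and 48 fell short of it. These totals pool limma results, judged by adjusted p, with permutation tests of single members, judged by unadjusted p. They are therefore not counts of limma calls gained and lost. Signal over background limits Rpl37 and several markers, and the ZT8 call of Rpl7l1 was lost with normexp and with no filter on dim probes.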
